A study of Mus musculus with 6 samples.

Results

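Interferon regulatory factors (IRFs) and STAT proteins are the transcription factors through which cells switch on genes after sensing infection, damage or interferon. The genes described here are 8 IRF genes (Irf1, Irf2, Irf3, Irf4, Irf5, Irf7, Irf8 and Irf9) and Stat2, taken by symbol from the deposited gene table, 9 of its 34745 rows, and all 9 had enough counts to be tested. The libraries are messenger RNA of cardiac macrophages of C57BL/6 mice, 8 weeks old, after myocardial infarction. Of these, 3 came from mice without legumain, a lysosomal protease (genotype LGMN-KO, replicates 1, 2 and 4, here Lgmn KO), and 3 from wild-type mice (WT, replicates 1, 2 and 3). All cells were released from the heart with enzymes and stained for CD45, CD64 and CD11b. The labels name both permanent ligation of the left anterior descending artery and a sham operation, without saying which each animal had. They give neither the time after surgery, the part of Lgmn that was removed, the cells in which it was removed, nor whether a library was 1 animal or a pool. The p-values thus set the difference between groups against the scatter of these libraries within groups, part of which may be technical.

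IRFs share a DNA-binding domain that recognises repeats of the bases GAAA, the core of the interferon-stimulated response element (ISRE). Sensors of nucleic acids and microbial products act through Irf3, Irf5 and Irf7 to start interferon and cytokine genes. Secreted type I interferon then acts through its receptor to assemble ISGF3, a complex of Irf9, Stat2 and a further STAT protein, on ISREs. Interferon gamma acts through a STAT dimer on GAS elements, which raises Irf1, and Irf1 in turn drives genes of antigen presentation. Irf4 and Irf8 work with the myeloid factor PU.1 and are known for roles in lineage and polarisation of macrophages and dendritic cells.

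Total counts per library lay between 19546253 and 24086976. Lgmn itself was at 78.7 to 88.5 CPM (counts relative to each library total, adjusted by TMM) in Lgmn KO and at 2205 to 2692 CPM in WT. All 10 macrophage markers were detected in every library, and they summed to 20331 to 23586 CPM in Lgmn KO and 22514 to 23840 CPM in WT, most of it Lyz2. Singly, 8 of the 10 were below 0 on the log2 scale (median -0.43). C1qa, a complement gene, fell from 165.6 ± 89.1 to 32.1 ± 5.80 CPM (SD, n = 3 each; edgeR adjusted p = 0.0486). C1qb, Fcgr1 and Csf1r stood at -2.03, -1.09 and -0.74 on the log2 scale (edgeR adjusted p = 0.0519, 0.170 and 0.0916), and Cd68 at 0.18 (adjusted p = 0.292). Markers of other cells were also present and in part differed. The sum of 12 T and NK cell markers was 0.642 to 1.48 CPM in Lgmn KO and 4.67 to 11.2 CPM in WT, and 6 of the 12 (Cd8a, Cd8b1, Ncr1, Nkg7, Prf1 and Gzma) had 0 counts in every Lgmn KO library, against 1 (Ncr1) in WT. For 10 dendritic cell markers the sums were 4.79 to 7.21 and 7.89 to 16.9 CPM, with Siglech at 0 in all libraries. Sums for 8 monocyte markers were 484 to 593 and 517 to 742 CPM, most of it Chil3, at 0.07 on the log2 scale. Singly, 5 of the 7 tested monocyte markers were below 0 (median -0.61). Itgal fell from 87.7 ± 19.7 to 34.9 ± 2.01 CPM (SD, n = 3 each, edgeR adjusted p = 0.0224). Ccr2 and Ly6c2 stood at -2.96 and -1.69 on the log2 scale (edgeR adjusted p = 0.0727 and 0.215). For 9 B and plasma cell markers the sums were 492 to 551 and 433 to 570 CPM. Neutrophil (92.7 to 119 and 162 to 274 CPM over 8 markers), fibroblast (33.0 to 76.9 and 94.2 to 126 CPM over 6, with Lum at 0 in Lgmn KO), endothelial (24.2 to 42.3 and 35.8 to 42.5 CPM over 7, with Tek and Emcn at 0 in all libraries) and cardiomyocyte transcripts (3.21 to 3.88 and 3.25 to 4.53 CPM over 6) were found as well. The neutrophil difference was that of Mmp8 (mean ± SD of 84.7 ± 13.3 CPM in Lgmn KO against 191 ± 58.0 CPM for WT, n = 3 each), while S100a8, S100a9 and Cxcr2 stood at 0.15, -0.03 and 0.43 on the log2 scale. The endothelial sum was mostly Kdr, and within it Flt1 fell from 8.31 ± 2.51 to 1.19 ± 0.257 CPM (SD, n = 3 each; edgeR adjusted p = 0.0150), with Esam at -1.04 on the log2 scale (adjusted p = 0.188). In bulk RNA, fewer cells of a type and less RNA per cell cannot be told apart, and the part of these cells in the results below was not tested.

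Irf1, Irf4, Stat2, Irf9, Irf2 and Irf5 were lower in every Lgmn KO library than in every WT library, whereas the Irf7, Irf8 and Irf3 levels of the groups overlapped. None of the 9 genes passed an adjusted p of 0.05 in the edgeR quasi-likelihood test over all 12546 genes, where 0.478% of genes were called lower. An unadjusted p under 0.05 with a lower level in Lgmn KO was found for 6 of 9, beside 10.6% of all genes tested. Groups that did not overlap, with Lgmn KO lower, were found for the same 6 genes, beside 13% of all genes tested. DESeq2's Wald test called 5 of the 9 lower (Irf1, Irf4, Irf5, Irf9 and Stat2), beside 3.51% of the genes with an adjusted p. By the authors' deposited table, the q-value was under 0.05 for 4 of the 9, all lower in Lgmn KO (Irf1, Irf4, Irf9 and Stat2), beside 2.8% of its genes with a q-value. Of these 4, the authors marked Irf1 and Irf4 as down, among 343 genes so marked, and left Irf9 and Stat2 unmarked. On the log2 scale, the changes from WT to Lgmn KO of the 9 genes had a median of -0.70, against -0.002 over all genes tested, and 8 of the 9 were negative, as were 6328 of all 12546. The tests thus differed on these genes, and the differences of Irf1, Irf4, Irf5, Irf9 and Stat2 are given as values whose call depends on the test.

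**Figure D1:**
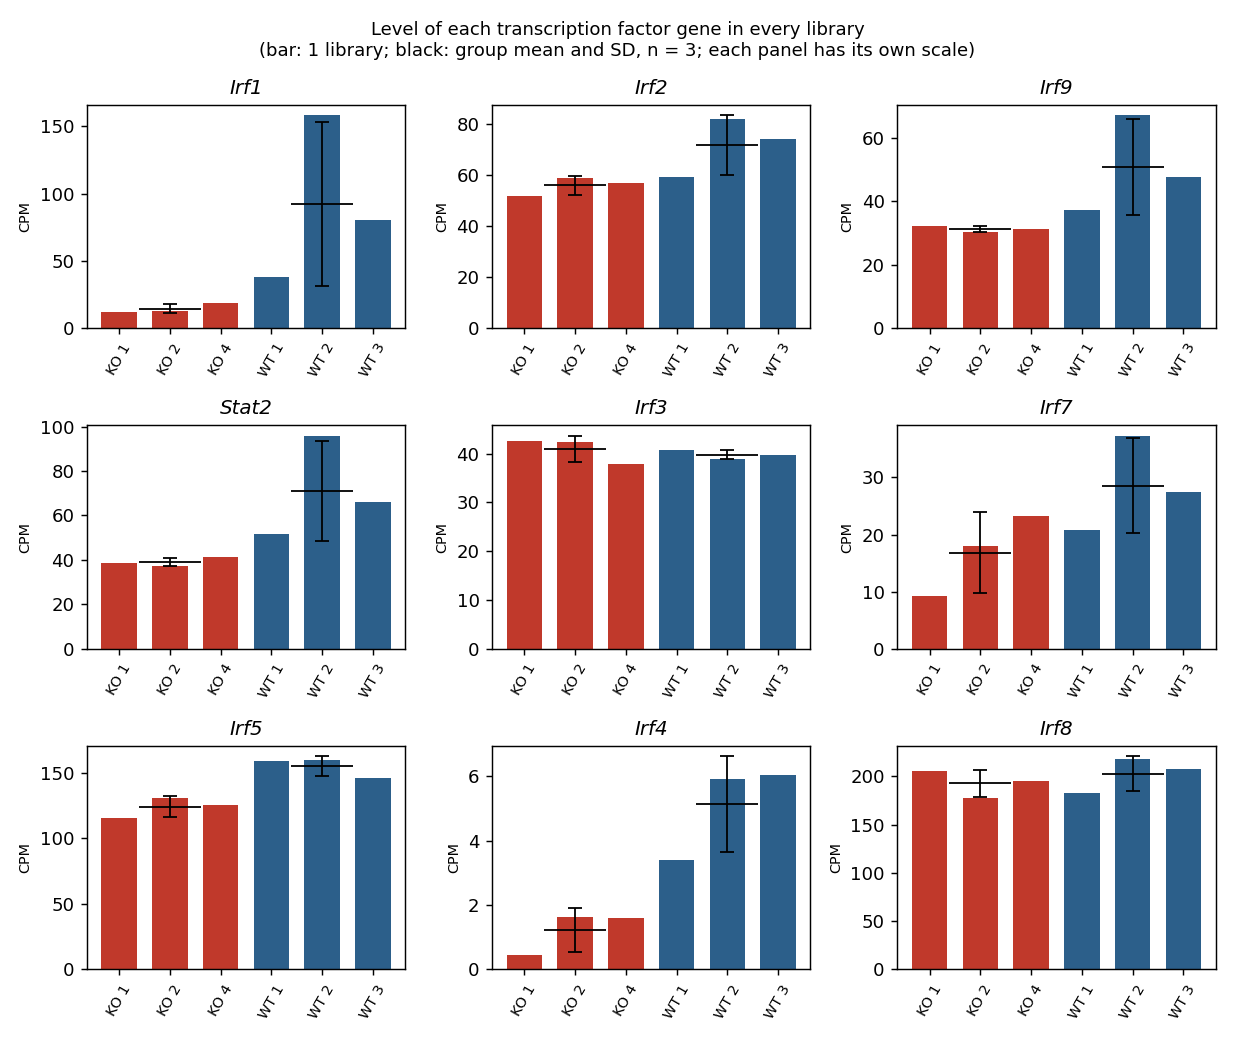
Level of each of the 9 genes in CPM (vertical axes, each with its own scale) in the 3 Lgmn KO libraries (red) and 3 WT libraries (blue), with group mean and SD in black. Irf1, Irf2, Irf9, Stat2, Irf5 and Irf4 are lower in every Lgmn KO library than in every WT library, and WT replicate 2 holds the highest value of all 6 libraries for Irf1, Irf2, Irf9, Stat2, Irf7, Irf5 and Irf8.

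Some IRF and STAT genes are themselves targets of interferon signalling, so their promoters were searched for its elements, and the matches are shown because they differ between members. RefSeq windows (GRCm38.p6, 300 bases, from 250 before to 50 after each annotated start) matched all 9 symbols, with more than 1 start for Irf1, Irf8 and Irf9. Both strands were searched for a 9-base ISRE core, GAAANNGAA, and for the GAS element, TTCNNNGAA, which reads the same on both strands. The ISRE core was in 8.56% and the GAS element in 8.3% of all 32851 windows. Counted by gene, with a match in any of its windows, the shares were 9.76% and 9.55% of 27025 genes. Among the 9 genes, Irf2 and Stat2 held the ISRE core and Irf1, Irf2 and Irf8 the GAS element. The matches do not overlap each other and are in capitals, on the strand of the gene, 5′ to 3′, with the bases around them in lower case.
Irf1, chr11:53769909-53769947, plus strand: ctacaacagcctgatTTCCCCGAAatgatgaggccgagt
Irf2, chr8:46739495-46739544, plus strand: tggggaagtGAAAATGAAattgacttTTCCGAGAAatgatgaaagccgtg
Irf8, chr8:120736172-120736228, plus strand: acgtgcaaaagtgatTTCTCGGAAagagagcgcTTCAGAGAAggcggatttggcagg
Stat2, chr10:128270262-128270300, plus strand: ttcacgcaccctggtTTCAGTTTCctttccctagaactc
In Irf1 the GAS match lies 90 to 82 bases before the start. In Irf2 the ISRE core ends 233 bases before it, and the GAS match lies at 224 to 216 bases. Irf8 has GAS matches at 171 to 163 and 153 to 145 bases, and the Stat2 match, at 221 to 213 bases, is the ISRE core read on the other strand. The windows of Irf3, Irf4, Irf5, Irf7 and Irf9 held neither set of letters, which says nothing of other spellings or of sites elsewhere. A match is a description of the sequence only, and binding was not measured.

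Irf1 had the largest fitted difference of the 9 genes. It activates interferon gamma target genes and lies on chromosome 11 from 53770014 to 53778374, plus strand, in the positions of the table, which are those of GRCm38. Its level was 12.0, 13.1 and 18.6 CPM in Lgmn KO replicates 1, 2 and 4, and 37.8, 158 and 80.6 CPM in WT replicates 1, 2 and 3. Each Lgmn KO library was below each WT library, and within WT the highest library held 4.19 times the lowest. The log2 fold change was -2.66 with a standard error of 0.49 (95% interval -3.79 to -1.53, edgeR quasi-likelihood test, adjusted p = 0.0575; DESeq2 adjusted p = 0.000484). This is the 0.558th percentile of all fitted changes, and the gene ranks 159 of 12546 by p. Leaving out WT replicate 2 moved the log2 fold change to -2.02, and leaving out WT replicate 1 moved it to -3.03, with an edgeR adjusted p of 0.00611. A predicted gene on the other strand overlaps 3.40% of the exonic bases of Irf1, and no source used here gives the strand setting used for counting.

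Irf2 binds the same DNA elements as Irf1 and is known chiefly as a constitutive competitor of it. Its gene spans 46739745 to 46847458 on chromosome 8, plus strand. Levels were 51.7, 58.8 and 56.9 CPM in Lgmn KO and 59.0, 81.9 and 73.8 CPM in WT. The groups did not overlap, but Lgmn KO replicate 2 and WT replicate 1 were almost level. The log2 fold change was -0.36 ± 0.12 (SE; edgeR adjusted p = 0.201, DESeq2 adjusted p = 0.161). The pair was also set against each other as a ratio of FPKM, the deposited unit per length and depth. The lengths behind it do not follow the annotated exonic bases, 3976 for Irf1 and 7396 for Irf2. In WT replicate 2, Irf1 was above Irf2 in CPM (158 and 81.9) but below it in FPKM (27.4 and 32.9). The size of the ratio thus depends on those lengths, and only its change between libraries is read here. Irf1 stood at 0.1003, 0.0963 and 0.140 of the Irf2 level in Lgmn KO and at 0.276, 0.832 and 0.471 in WT. No Lgmn KO value reached a WT value, and an exact two-sided permutation test of the ratio gave p = 0.1, the smallest that 3 libraries against 3 allow. Of 5 such ratios computed among members all had this p, also after Benjamini-Hochberg adjustment.

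Irf9 and Stat2, the subunits of ISGF3 in this set, had nearly the same profile over the 6 libraries. Irf9 (chromosome 14, 55603571 to 55610030, plus strand) is the DNA-binding subunit and was at 32.1, 30.5 and 31.3 CPM in Lgmn KO and 37.3, 67.1 and 47.6 CPM in WT. The coefficient of variation was 2.58% in Lgmn KO and 29.9% in WT. Stat2 (chromosome 10, 128270576 to 128292849, plus strand), which provides the activation domain, was at 38.7, 37.4 and 41.2 CPM in Lgmn KO and 51.5, 95.8 and 66.2 CPM in WT. For both genes each Lgmn KO library lay below WT replicate 1, the lowest WT library. The log2 fold change was -0.70 ± 0.19 for Irf9 (SE; edgeR adjusted p = 0.136, DESeq2 adjusted p = 0.0166) and -0.86 ± 0.21 for Stat2 (SE; edgeR adjusted p = 0.0934, DESeq2 adjusted p = 0.00166). Without WT replicate 2 these values were -0.44 and -0.59. Likeness of profiles was measured as the root mean square distance between log2 CPM, each centred on its own mean. Irf9 and Stat2 were the closest of the 36 pairs of members, at 0.0922, ahead of Irf3 and Irf8, at 0.140, both of which varied little. The FPKM ratio of Irf9 to Stat2 stayed between 0.366 and 0.433 in all libraries, a range of 1.18 times. Its values were 0.433, 0.426 and 0.397 in Lgmn KO and 0.378, 0.366 and 0.376 in WT, again without overlap (exact two-sided permutation p = 0.1, the smallest possible). Rnf31 on the same strand overlaps 2.28% of the exonic bases of Irf9 and stood at -0.16 on the log2 scale (edgeR adjusted p = 0.440).

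**Figure D2:**
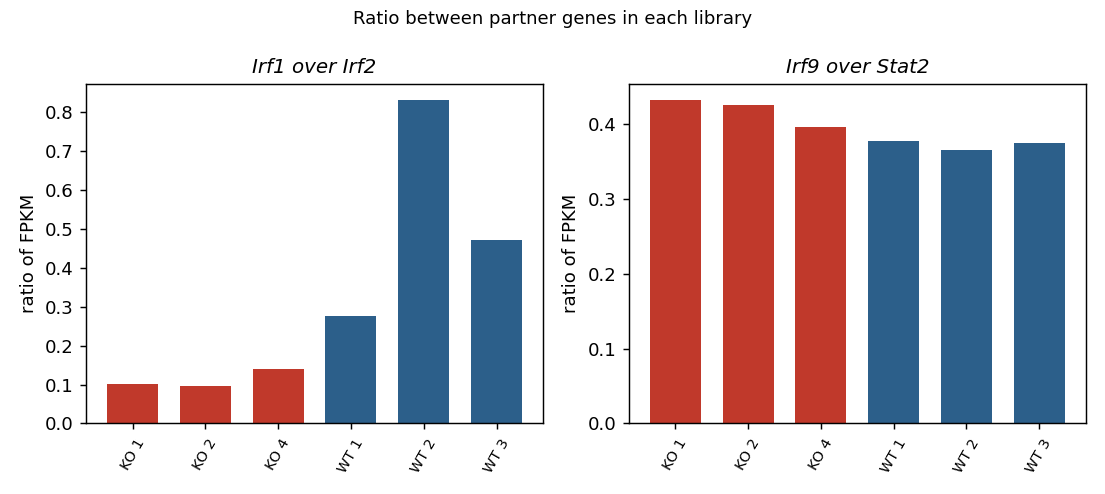
Ratio of FPKM in each library (red Lgmn KO, blue WT) for Irf1 over Irf2 (left) and Irf9 over Stat2 (right), axes starting at 0. The Irf1 ratio runs from 0.0963 to 0.832, and the Irf9 ratio stays between 0.366 and 0.433.

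Irf3 and Irf7 switch on interferon genes after nucleic acid sensing, and for both the groups overlapped. Irf3, which waits in the cytoplasm until it is phosphorylated, lies on chromosome 7 from 44997648 to 45002847, plus strand. It was at 42.5, 42.4 and 37.8 CPM in Lgmn KO and at 40.6, 38.8 and 39.7 CPM in WT. The groups overlapped fully, with a log2 fold change of 0.04 and a 95% interval of -0.14 to 0.22 (edgeR adjusted p = 0.842). Irf7 (chromosome 7, 141262706 to 141266481, minus strand), itself raised by interferon, was at 9.28, 18.0 and 23.2 CPM in Lgmn KO and 20.7, 37.3 and 27.5 CPM in WT. Lgmn KO replicate 4 lay above WT replicate 1, and Lgmn KO replicate 1 was well below every other library. The log2 fold change was -0.76 ± 0.34 (SE; 95% interval -1.54 to 0.03, edgeR adjusted p = 0.301, DESeq2 adjusted p = 0.165). It was -0.46 without Lgmn KO replicate 1 and -1.07 without Lgmn KO replicate 4. Exons of Irf3 share 2.56% of their bases with Bcl2l12 and those of Irf7 1.19% with Phrf1, each on the other strand.

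Irf5, which carries Toll-like receptor signals to inflammatory cytokine genes, had the highest deposited FPKM of the members in every library. Its gene lies on chromosome 6 from 29526625 to 29541871, plus strand. Levels were 115, 131 and 126 CPM in Lgmn KO and 158, 160 and 146 CPM in WT. The difference was small but the libraries of each group were close, with a coefficient of variation of 6.36% in Lgmn KO and 4.86% in WT. The log2 fold change was -0.32 ± 0.08 (SE; 95% interval -0.50 to -0.14, edgeR adjusted p = 0.0933, DESeq2 adjusted p = 0.0289). It ranged from -0.36 to -0.26 when each library was left out in turn. Tnpo3, on the other strand, overlaps 14.2% of the exonic bases of Irf5 and stood at -0.02 on the log2 scale (edgeR adjusted p = 0.958).

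Irf4, linked to alternative activation of macrophages and also used by dendritic, B and T cells, was the least abundant member. It lies on chromosome 13 from 30749226 to 30766927, plus strand, with 9, 32 and 34 reads counted in Lgmn KO libraries, and 70, 128 and 145 in those of WT. In CPM these were 0.444, 1.64 and 1.60 in Lgmn KO and 3.41, 5.93 and 6.05 in WT. Every Lgmn KO library was below every WT library, and Lgmn KO replicate 1 was the lowest. The log2 fold change was -2.06 ± 0.45 (SE; 95% interval -3.11 to -1.005, edgeR adjusted p = 0.0837, DESeq2 adjusted p = 0.000672), and -1.65 without Lgmn KO replicate 1. The sums of T and NK cell, dendritic cell, neutrophil and fibroblast markers given above were also higher in each WT library than in each Lgmn KO library. The other sums, that of B and plasma cell markers among them, overlapped. The part of any of these cells in the Irf4 values was not tested.

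Irf8, a lineage factor of monocytes, macrophages and dendritic cells, was high in all libraries. Its gene lies on chromosome 8 from 120736358 to 120756694, plus strand. It was at 205, 178 and 196 CPM in Lgmn KO and at 183, 218 and 208 CPM in WT. The groups overlapped, with a log2 fold change of -0.07 and a 95% interval of -0.28 to 0.14 (edgeR adjusted p = 0.742). The partner that Irf8 and Irf4 share, PU.1 (Spi1), stood at 0.08 on the log2 scale (edgeR adjusted p = 0.605).

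**Figure D3:**
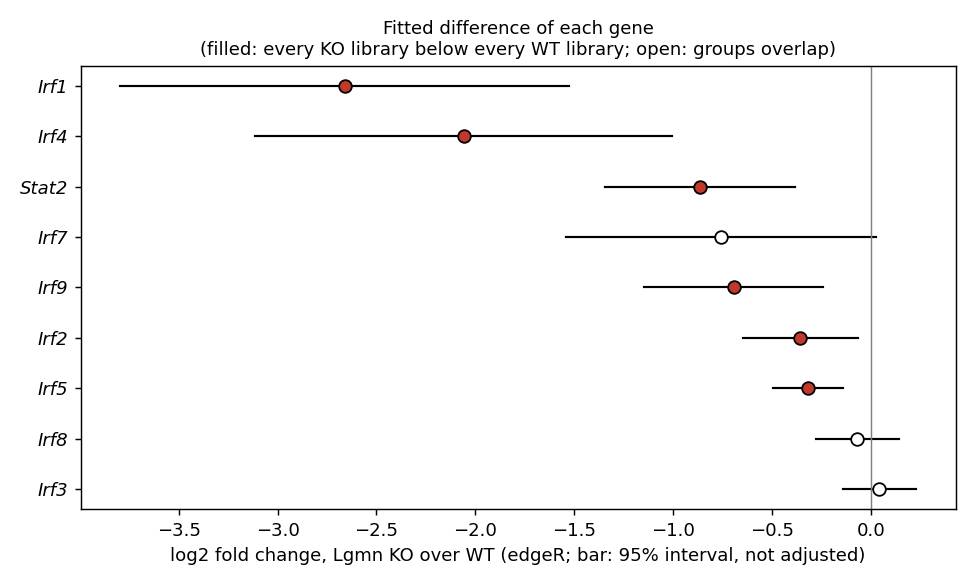
Fitted change of Lgmn KO over WT on the log2 scale (horizontal axis) for each gene, with its unadjusted 95% interval. Filled points mark the 6 genes whose Lgmn KO libraries all lie below the WT libraries, and the intervals of Irf7, Irf8 and Irf3 include 0.

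The order of the members by deposited FPKM rests on lengths that, for Irf1 and Irf2, do not follow the annotated exonic bases. With other lengths the order could differ. Irf5 led it, at 34.7 ± 2.30 FPKM in Lgmn KO and 43.8 ± 2.46 FPKM in WT (SD, n = 3 each). In WT it was followed by Irf2 (28.9 ± 4.39 FPKM), Irf8 (23.5 ± 1.79), Irf3 (16.8 ± 0.576), Irf1 (15.995 ± 10.5), Stat2 (15.9 ± 4.92), Irf9 (5.92 ± 1.72), Irf7 (4.45 ± 1.26) and Irf4 (1.06 ± 0.297). The order of Irf3, Irf1 and Stat2 changed between WT libraries, whereas Irf9 exceeded Irf7 in all 3. In Lgmn KO the order was Irf2 (22.4 ± 1.51 FPKM) and Irf8 (22.1 ± 1.52), whose order changed between libraries, then Irf3 (17.1 ± 1.23), Stat2 (8.67 ± 0.378), Irf9 (3.63 ± 0.0845), Irf7 (2.61 ± 1.08), Irf1 (2.51 ± 0.589) and Irf4 (0.251 ± 0.139). Irf9 exceeded Irf7 in all 3 Lgmn KO libraries too, and the order of Irf7 and Irf1 changed between them. Irf1 was the member whose place moved most, from rank 5 by mean in WT to rank 8 in Lgmn KO. In single libraries its rank was 6, 3 and 6 in WT replicates 1, 2 and 3 and 7, 8 and 8 in Lgmn KO replicates 1, 2 and 4. Irf8 exceeded Irf1 by 11.3, 9.01 and 7.002 times in FPKM in Lgmn KO and by 3.22 and 1.71 times in WT replicates 1 and 3, whereas in WT replicate 2 the ratio was 0.914.

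The WT libraries differed among themselves in several members. The coefficient of variation was higher in WT than in Lgmn KO for Irf1 (66.2% and 24.0%), Stat2 (31.7% and 4.99%), Irf9 and Irf2, about level for Irf8 (8.74% and 7.20%), and lower in WT for Irf7 (29.1% and 41.9%), Irf4, Irf5 and Irf3. Irf1, Irf2, Irf7, Irf8, Irf9 and Stat2 (6 of 9) ranked the WT libraries in one order, replicate 1 lowest, then 3, then 2, an order found in 22.7% of all genes tested. The T and NK cell marker sums had this order too (4.67, 9.68 and 11.2 CPM), as had those of dendritic cells (7.89, 14.1 and 16.9 CPM), monocytes (517, 541 and 742 CPM) and neutrophils (162, 195 and 274 CPM). So did the macrophage markers Adgre1, Fcgr1, Csf1r, Mertk, Itgam, C1qa and C1qb. Cd68, Ptprc and Lyz2 did not, with Lyz2 at 17645, 14453 and 16567 CPM in WT replicates 1, 2 and 3. The macrophage, B and plasma cell, endothelial, fibroblast and cardiomyocyte marker sums had other orders as well. The part of cell composition in the order was not tested. Among 9564 genes with a mean of at least 5 CPM, those closest in profile to Irf1 over the 6 libraries were C1qa (distance 0.206), the chemokine gene Ccl9 (0.231) and H2-DMa, which loads peptides onto MHC class II (0.263). Closest to Irf4 were Igfbp4 (0.234), Rpl30 (0.271) and Ptgs2 (0.359). With only 6 libraries in 2 groups, such likeness is a description.

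The interferon genes themselves had almost no counts, and none passed the filter for the edgeR test. Of 20 interferon genes in the list, 18 had 0 counts in all 6 libraries, among them Ifnb1. Ifnab had 1 count, in WT replicate 2. Ifng had 0 counts in each Lgmn KO library and 3, 16 and 6 counts in WT replicates 1, 2 and 3, so that the 25 WT counts stood at least 7.69-fold higher than 3 counts over the Lgmn KO group would. A count of 0 allows up to 0.141 to 0.153 CPM in an Lgmn KO library, counting error only. DESeq2, run without that filter, gave 1 of the 20 an adjusted p and called it lower. The 3 WT libraries thus ranked for Ifng as they did for Irf1, an order found in 22.7% of all genes tested. For Ifng it rests on few counts, and a link between these genes was not tested.

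Receptors and Janus kinases differed little. Of 9 in the list 8 were tested and 0 were called by edgeR (by unadjusted p under 0.05 1 was lower and 1 higher, and DESeq2 called 0), with a median log2 fold change of -0.11. Of all 12546 genes tested, 1325 were lower and 866 higher at an unadjusted p under 0.05. The subunits of the interferon gamma receptor went in opposite directions: Ifngr1 was at 75.8, 113 and 97.8 CPM in Lgmn KO and 108, 156 and 139 CPM in WT, and its fitted change was -0.49 on the log2 scale (edgeR adjusted p = 0.213), against 0.22 for Ifngr2 (edgeR adjusted p = 0.148). Jak2, a kinase of that receptor, had a log2 fold change of -0.20, and the abundant Jak1 and Il10rb values of -0.02 and 0.14. The groups overlapped for Ifngr1, with WT replicate 1 below Lgmn KO replicate 2.

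Of 23 sensors, adaptors and kinases that act on IRFs, 1 was called lower and 0 higher. The called gene, Irak4, a kinase of Toll-like receptor signalling, fell from 59.9 ± 5.30 to 39.5 ± 2.35 CPM (SD, n = 3 each; log2 fold change -0.60, edgeR adjusted p = 0.0410). The list had a median log2 fold change of -0.37, with 9 members lower at an unadjusted p under 0.05 and 5 called lower by DESeq2. The shares of all genes were 10.6% and 3.51%, and edgeR called 0.478% of all genes lower. The adaptor genes Ticam2 and Myd88 had log2 fold changes of -0.42 and -0.43 (edgeR adjusted p = 0.0844 and 0.108). Unc93b1, the chaperone of endosomal Toll-like receptors, was at -0.49 (adjusted p = 0.166). Tbk1, the kinase that phosphorylates Irf3, had a log2 fold change of -0.02, at 99.98 to 109.8 CPM in Lgmn KO and 103.4 to 111.4 CPM in WT.

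The target genes of interferon gamma had the lowest median of the lists. Of 19 interferon gamma targets 18 were tested, all 18 had a negative log2 fold change with an unadjusted p under 0.05, and 17 had groups that did not overlap. With adjustment over all genes 2 fell by edgeR, Cd74 and Cxcl9, and DESeq2 called 16 lower. Of all genes tested, 10.6% were lower at an unadjusted p under 0.05 and 13% were lower without overlap. EdgeR called 0.478% and DESeq2 3.51% of all genes lower. The chemokine gene Cxcl9 was at 0, 0 and 0.0471 CPM in Lgmn KO and at 1.61, 13.0 and 4.84 CPM in WT (edgeR adjusted p = 0.0446). Ciita, the master regulator of MHC class II genes, was at 2.27, 2.25 and 2.17 CPM in Lgmn KO and at 9.20, 64.2 and 32.9 CPM in WT (edgeR adjusted p = 0.0519). Cd274, the gene of the checkpoint ligand PD-L1, was abundant and stood at -0.52 on the log2 scale (edgeR adjusted p = 0.107). Over the list the median was -2.12, against -0.002 over all genes, and its summed level was 611, 667 and 732 CPM in Lgmn KO and 1271, 3889 and 2221 CPM in WT, in the WT order seen for Irf1. That order was found in 22.7% of all genes tested.

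ISGF3 targets had a median log2 fold change of -0.69 over 32 tested of 36 genes. By edgeR 0 were called, 19 were lower at an unadjusted p under 0.05 and 14 had groups that did not overlap with Lgmn KO lower, while DESeq2 called 12 lower. In the same order, the shares of all genes lower were 0.478%, 10.6%, 13% and 3.51%. The nucleic acid sensor gene Zbp1 was at 5.38, 6.44 and 7.31 CPM in Lgmn KO and 15.4, 43.8 and 22.9 CPM in WT (edgeR adjusted p = 0.0555). The chemokine gene Cxcl10 was at 0.148, 0.204 and 0.236 CPM in Lgmn KO and 0.876, 3.70 and 1.38 CPM in WT (adjusted p = 0.0727). Parp9 stood at -0.73 (edgeR adjusted p = 0.0789) and Parp14 at -0.86 (adjusted p = 0.139) on the log2 scale. For Trim25, the most abundant, the value was 0.29 (adjusted p = 0.499). The list's summed level of 835 to 978 CPM in Lgmn KO came close to the 994 CPM of WT replicate 1.

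Among 12 feedback inhibitors 0 were called by edgeR, with a median log2 fold change of -0.15. Those lower at an unadjusted p under 0.05 were 5, and DESeq2 called 3 lower, beside 10.6% and 3.51% of all genes. The STAT-inhibiting genes Cish, Socs2 and Socs3 had log2 fold changes of -2.76, -2.23 and -1.41 (edgeR adjusted p = 0.0866, 0.1003 and 0.103). Socs3 was at 11.1, 17.7 and 14.0 CPM in Lgmn KO and 20.2, 55.3 and 38.0 CPM in WT, without overlap. The abundant phosphatase genes Ptpn6 and Ptpn1 had values of -0.41 and -0.26. Among 15 partner and corepressor genes 0 were called by edgeR (3 lower at an unadjusted p under 0.05, 1 called lower by DESeq2), with a median of -0.13. These 3 and 1 of 15 stand beside the same 10.6% and 3.51%. Batf, the AP-1 partner of Irf4, was at 14.5, 11.7 and 11.5 CPM in Lgmn KO and 17.4, 22.0 and 17.1 CPM in WT, a log2 fold change of -0.58 (edgeR adjusted p = 0.108). Ikzf3 and Batf2 had values of -1.96 and -1.61 at 0.0987 to 3.71 CPM, and the coactivator gene Ep300 one of -0.08.

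Genes tied to Irf4 and Irf5 in macrophages were few. Of 8 alternative activation genes linked to Irf4, 6 were tested, 5 were lower at an unadjusted p under 0.05 and 1 fell: Retnla, from 3.05 ± 0.451 to 0.939 ± 0.185 CPM (SD, n = 3 each; edgeR adjusted p = 0.0444). DESeq2 called 3 lower, and the median log2 fold change was -1.08. Of all genes, 10.6% were lower at an unadjusted p under 0.05, and edgeR called 0.478% and DESeq2 3.51% lower. Arg1, the arginase gene, was at 2.96, 2.25 and 5.89 CPM in Lgmn KO and 6.38, 60.5 and 19.7 CPM in WT (adjusted p = 0.123). Mrc1, the mannose receptor gene, had a log2 fold change of -0.72 and the abundant Chil3 of 0.07. Of 6 cytokine genes linked to Irf5 only Il1b and Tnf had enough counts to be tested, and they differed. Il1b fell, from 4.14 ± 1.63 to 0.571 ± 0.132 CPM (SD, n = 3 each; log2 fold change -2.84, edgeR adjusted p = 0.0277), and Tnf had a log2 fold change of -0.05. Their median, -1.44, is the midpoint of these 2 genes and describes neither.

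**Figure D4:**
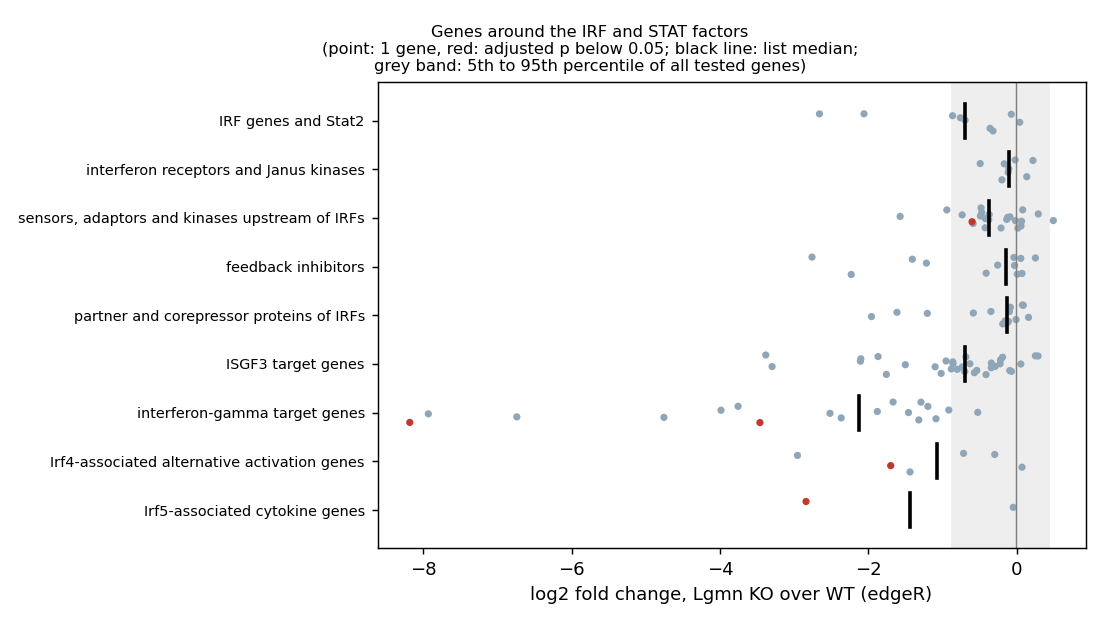
Fitted change from WT to Lgmn KO on the log2 scale (horizontal axis) for each tested gene of each list (rows), with list medians as black lines. Red points passed an adjusted p of 0.05, and the medians run from -2.12 for interferon gamma targets to -0.11 for receptors and Janus kinases, beside the 5th to 95th percentile of all genes (-0.87 to 0.44). The line of the Irf5-associated cytokine genes is only the midpoint of 2 genes.

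The number of the 9 genes that passed depended on single libraries, as did the number over all genes. Without WT replicate 1, the lowest WT library for 7 of the 9, edgeR called 5 of them lower (Irf1, Irf2, Irf4, Irf9 and Stat2). That fit called 639 of 12802 genes in all (4.99%), 470 of them lower, against 99 of 12546 with all libraries. In each of the other 5 fits that left out 1 library, 0 of the 9 were called, beside 6 to 35 genes in all. The log2 fold changes kept their sign in all 6 of these fits for all 9 genes. For the 6 whose groups do not overlap, leaving out a library could not change it.

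**Figure D5:**
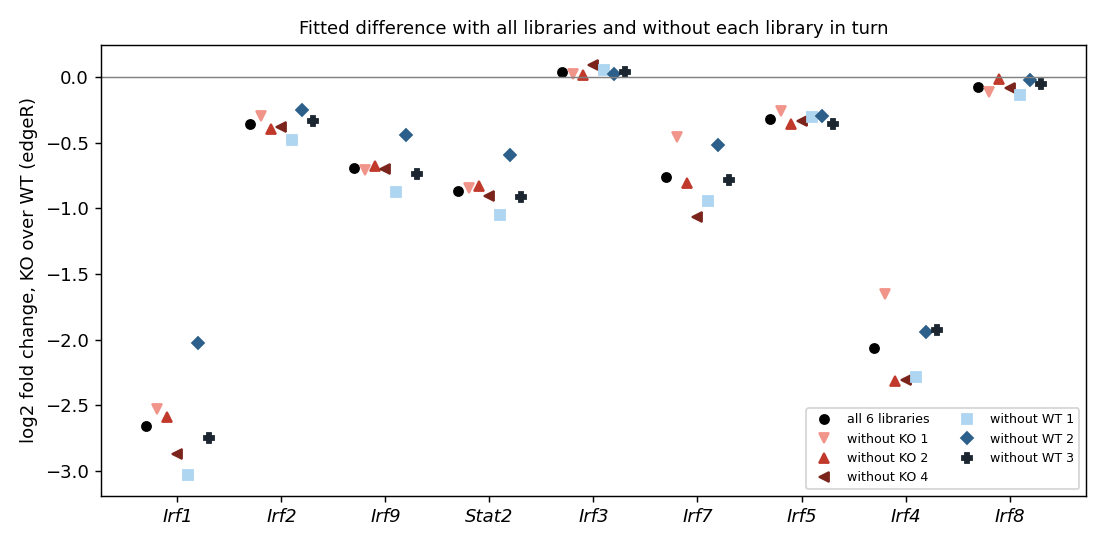
Fitted log2 fold change of each gene (vertical axis) with all 6 libraries (black circles) and without each library in turn (other symbols). Irf1 moves from -3.03 without WT replicate 1 to -2.02 without WT replicate 2, and Irf3 and Irf8 stay near 0.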

How the data were processed

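The deposited table holds, per the file headers, a count and an FPKM value per gene for each of 6 libraries, with the authors' group means of FPKM, log2 fold change, p-value and q-value. Per the submitters' processing notes HISAT2, TopHat2 2.0.9 and TopHat were used, with no role given, and the build named there, hg38, is human. The table gives mouse positions, and GENCODE M21 (GRCm38) holds 98.62% of the IDs. No source used here gives the counter or its strand setting. Pairs of libraries of 1 group differed by 14.0 to 42.7 times sampling noise (chi-square over degrees of freedom), so none was taken for a library deposited again, which does not show that they are separate animals.

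Counts were filtered with filterByExpr, scaled by TMM and tested with edgeR 4.0.16 (glmQLFit, glmQLFTest, R 4.3.3, no covariate), with Benjamini-Hochberg adjustment over 12546 genes and calls at an adjusted p below 0.05. In all, 39 genes were called higher and 60 lower. Errors of log2 fold changes are standard errors from the F statistic. Deposited FPKM served only to compare genes, with lengths that for Irf1 and Irf2 do not follow the exonic bases of GENCODE M21. Alternatives were DESeq2 1.42.0, limma 3.58.1 (voom with sample weights), other size factors, filters and threshold, each library left out, and a replicate block. The code was tested on simulated data.

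All 9 members are named. From each list the text names the genes called, then the 3 with the smallest p, then the 2 with the highest mean level, up to 5. Profile neighbours are given for the 2 members of smallest p. All 157 entries of the member and pathway lists were found, Cgas as Mb21d1. Members and lists were chosen with earlier results of these data known. STAT genes other than Stat2 are not analysed here.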

Additional observations from a re-analysis of the deposited data

How the results depend on the processing

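The log2 fold changes of all 9 members kept their sign in all 13 alternatives. The number of members called was 0 of 9 by edgeR and also 0 with RLE factors or with at least 1 CPM in 3 libraries. DESeq2 called 5 members and 772 of 14159 genes (5.45%, 497 of them lower), against 99 of 12546 genes (0.789%, 60 of them lower) by edgeR. The fit by limma with voom and sample weights called 2 members (Irf1 and Irf4) and 340 of 12546 genes (2.71%, 221 of them lower). EdgeR without the filter on low counts called 3 members (Irf1, Irf4 and Stat2) and 318 of 18457 genes (1.72%, 230 of them lower). At an adjusted p below 0.1, edgeR called 4 members (Irf1, Irf4, Irf5 and Stat2) and 503 of 12546 genes (4.01%, 324 of them lower). Leaving out each library in turn gave 0 to 5 members and 6 to 639 genes (0.0468% to 4.99%), the highest of both without WT replicate 1. A replicate block on the shared numbers 1 and 2, which uses 4 libraries, called 0 members and 33 genes, and the same 4 libraries without the block, added after seeing the data, 0 members and 4 genes. Same-numbered libraries deviated together with a correlation of 0.122 and 0.0757, so the numbers were not shown to pair them. Why the counts differ between tools and filters was not tested. With 3 libraries a group, an exact permutation test of 1 gene cannot go below p = 0.1. Irf4 rested on as few as 9 counts in 1 library, and Ifng on none in Lgmn KO.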

Other observations

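The promoter windows of the target genes were searched for the same letters as those of the factors. The ISRE core was found for 18 of the 27 ISGF3 targets with a window in the RefSeq table and for 9 of 13 interferon gamma targets, against 9.76% of all 27025 genes. The GAS element was found for 6 of the 27 ISGF3 targets and 5 of the 13 interferon gamma targets, against 9.55% of all genes. The lists were made from genes known to respond to interferon, so these shares are a description of the lists and not a test.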
